A study of Mus musculus with 16 samples.

Results

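Serine withdrawal and lipopolysaccharide (LPS) were combined in mouse macrophages, and the quantity described here is their interaction: the log2 change that LPS produced without serine minus the log2 change that it produced with serine. A positive value means that a gene was less lowered or more raised by LPS when serine was missing, and a negative value means the reverse. The members were the genes with at least 10 counts summed over each of the 4 groups, 11199 of the 43430 genes in the count table. Of these, 10702 passed the filter on low counts and were tested, and 497 did not. The cells were bone marrow-derived macrophages of C57BL/6J mice, grown out with macrophage colony-stimulating factor and moved to MEM, a defined medium. The 4 groups were untreated in complete MEM, untreated in MEM lacking serine, given LPS at 100 ng/mL in complete MEM, and given the same LPS in MEM lacking serine, with RNA taken 4 h after LPS. Each group had 4 libraries numbered 1 to 4. Whether the replicates were separate animals or parallel cultures is not in the labels, so p-values measure only the spread between these libraries.

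LPS, a glycolipid of the Gram-negative cell envelope, is sensed by Toll-like receptor 4 and raises cytokine and chemokine genes within hours through NF-kB and AP-1 factors, while other genes are shut down. Serine is taken up from the medium or made from a glycolytic intermediate by Phgdh, Psat1 and Psph, and it feeds glycine, one-carbon units and glutathione. Lack of an amino acid raises translation of the transcription factor ATF4, whose targets include the serine synthesis enzymes and the aminoacyl-tRNA synthetases.

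The count rule left out the LPS genes that were near 0 before treatment. Il6, with 0 counts in both untreated groups and 3371 and 2151 counts over the LPS groups with and without serine, was no member, and neither were Il12b and Nos2. Il1b was a member, with 17 and 15 counts over the untreated groups with and without serine, and 17784 and 8240 over the LPS groups. The rule has a threshold, and 97 genes had a smallest group sum of exactly 10 counts, 38 of them tested, while 148 had a smallest sum of 9 counts, 36 of them tested.

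Total counts per library ranged from 2871477 to 10043362. Replicate 4 of the untreated group without serine, named untreated serine-free replicate 4 here, stood apart, with the lowest total, 12900 detected genes against at least 14000 in every other library, and a share of 23.1% taken by the 20 most abundant genes. The interaction is therefore given by replicate number, or without number 4, for part of the genes and groups. Values given without either may also depend on number 4. All 14 macrophage markers were detected in every group, with summed levels of at least 21300 CPM (counts per 1000000, with library sizes adjusted by TMM) in every library. Replicate 1 of each group was male by Xist and Y-linked counts and the other 12 libraries female, so replicate number 1 and sex cannot be told apart. The 4 numbers were thus not all cultures of 1 animal, while whether numbers 2 to 4 were separate animals stays unknown.

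No gene of the 11004 tested passed an adjusted p of 0.05 for the interaction (0% called; quasi-likelihood test of edgeR, adjusted after Benjamini and Hochberg), the smallest adjusted p being 0.913 for Cxcr4. At an unadjusted p under 0.05 there were 253 genes, 2.3% of those tested, 122 higher (1.11%) and 131 lower (1.19%); the members among them numbered 236 (2.21% of members tested), 114 higher (1.07%) and 122 lower (1.14%). DESeq2 called 1 gene and the edgeR likelihood ratio test 1 gene, Cxcr4 in both. The median standard error of an interaction was 0.29 on the log2 scale. For comparison, the same fit called 55.8% of genes for LPS with serine and 56.8% for LPS without it. For serine withdrawal it called 0% in untreated cells and 7 genes, 0.0636%, in cells given LPS. These comparisons share libraries with the interaction, so their values are set beside it without a test between them.

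Same-numbered libraries deviated together in the groups that are subtracted from each other, as described under the processing, and a fit with the replicate number as a block was set beside the unpaired one. The block alone called no gene (0%), with a smallest adjusted p of 0.0809 for Cxcr4 and 465 genes at an unadjusted p under 0.05 (4.23%). With the block and without untreated serine-free replicate 4, 8 of 11107 genes were called (0.072%), all of them members. Cxcr4, Trp53inp1, Klhl24 and Cebpg were higher (0.036%), and 4 genes were lower (0.036%), among them Tnfaip2, Jdp2 and Srsf6. Without all 4 libraries of number 4 the blocked fit called 1 gene (0.00896%), Cxcr4. Of the 8 genes, all except Cxcr4 were called in that 1 fit and in none of the other fits run.

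Cxcr4 encodes the receptor of the chemokine CXCL12, which holds leukocytes in the bone marrow. It lies on chromosome 1, at 128588199 to 128592293 on the minus strand in mm10 (ENSMUSG00000045382). In untreated cells with serine Cxcr4 stood at 757, 599, 622 and 650 CPM in replicates 1 to 4, and without serine at 772, 641, 661 and 580 CPM. With LPS it stood at 49.9, 43.9, 41.7 and 46.6 CPM with serine, and at 126, 87.6, 74.9 and 103 CPM without it. The untreated groups overlapped, whereas each LPS library without serine lay above each LPS library with serine. LPS lowered Cxcr4 in both media, by a log2 fold change of -3.85 ± 0.16 (SE) with serine and -2.76 ± 0.16 without it (edgeR adjusted p = 1.35e-11 and 2.89e-10). The interaction was 1.09 ± 0.21, with a 95% confidence interval from 0.65 to 1.53, and 1.30, 0.90, 0.76 and 1.30 in numbers 1 to 4. It missed the adjusted threshold in the unpaired fit (unadjusted p = 8.29e-05 and adjusted p = 0.913, edgeR) and passed it with the block and without the replicate that stood apart, at 1.01 ± 0.11 (edgeR adjusted p = 0.000206). The withdrawal itself had a value of 0.01 ± 0.15 in untreated cells and raised Cxcr4 by 1.10 ± 0.15 in LPS-treated cells (edgeR adjusted p = 0.0181).

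Promoter sequences were looked up for 7 of the genes called with the block and without that replicate, since the fits singled out their interaction, and RefSeq start sites (GRCm38.p6) were found for 5 of them. The 250 bases upstream of the start are shown for Cxcr4, the leading gene, at chr1:128592300-128592549 on the minus strand, and for Srsf6 at chr2:162931258-162931507 on the plus strand. Capitals mark a match to one of the motifs named next.
Cxcr4: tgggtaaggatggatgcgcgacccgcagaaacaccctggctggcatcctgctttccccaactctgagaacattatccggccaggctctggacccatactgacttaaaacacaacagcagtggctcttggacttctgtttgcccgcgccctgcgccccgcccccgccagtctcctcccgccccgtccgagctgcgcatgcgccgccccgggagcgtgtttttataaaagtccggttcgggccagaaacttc
Srsf6: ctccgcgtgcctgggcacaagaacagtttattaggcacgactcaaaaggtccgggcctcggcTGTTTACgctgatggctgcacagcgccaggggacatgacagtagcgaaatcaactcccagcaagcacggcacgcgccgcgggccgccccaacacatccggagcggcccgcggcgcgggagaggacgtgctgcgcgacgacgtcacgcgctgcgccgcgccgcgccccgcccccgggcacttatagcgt
Both strands of the 250 bases were searched for 5 motifs picked with the results known: the FOXO core GTAAACA, the C/EBP-ATF response element TGATGNAA, the AP-1 site TGANTCA, the CRE TGACGTCA and the kappaB site GGGACTTTC. Of 32851 promoter windows of the same length, 3.17%, 3.45%, 6.75%, 1.55% and 0.289% held them, in that order. Srsf6 held the FOXO core, read as TGTTTAC, 188 to 182 bases before its start. In 1 of 3 listed starts of Jdp2 the response element was found as TGATGCAA, 33 to 26 bases before the start. None of the 5 motifs was in the windows of Cxcr4, Cebpg or Tnfaip2. These matches describe letters only.

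Trp53inp1, Arl11 and Klhl24 were also lowered by LPS in both media, with the smaller fold change without serine. Trp53inp1 encodes a stress-induced protein, a target of p53 with a role in autophagy, and lies on chromosome 4 at 11156431 to 11174379 on the plus strand. Untreated levels of Trp53inp1 were 81.8, 67.5, 83.3 and 86.2 CPM with serine and 85.1, 69.3, 86.9 and 54.3 CPM without it. With LPS they were 15.5, 17.6, 17.1 and 16.9 CPM with serine and 29.2, 28.4, 29.3 and 32.0 CPM without it. Only the LPS groups were apart, and replicate 4 without serine was the lowest of the untreated libraries. The interaction of Trp53inp1 was 0.93 ± 0.19, by number 0.85, 0.64, 0.71 and 1.57, and 0.74 without number 4. It was called with the block and without that replicate, at 0.78 ± 0.12 (edgeR adjusted p = 0.00802).

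Arl11, a small GTPase of the ARF-like family, had 138, 124, 154 and 140 CPM untreated with serine and 168, 151, 149 and 144 CPM without it. With LPS it had 20.4, 20.7, 15.8 and 15.7 CPM with serine and 53.9, 39.0, 30.7 and 34.1 CPM without it. The LPS groups did not overlap, while the untreated groups did. The interaction of Arl11 was 0.98 ± 0.22 and lay between 0.62 and 1.11 in the 4 numbers, and none of the fits called this interaction. Withdrawal had a value of 0.14 ± 0.15 in untreated cells and raised Arl11 by 1.12 ± 0.16 in LPS-treated cells, where it was called (edgeR adjusted p = 0.0199). Klhl24, a Kelch-like protein, had an interaction of 0.73 ± 0.27 in the unpaired fit and 0.51 ± 0.09 with the block and without untreated serine-free replicate 4, where it was called (edgeR adjusted p = 0.0425). Untreated Klhl24 stood at 176, 180, 179 and 192 CPM with serine and at 211, 219, 213 and 95.5 CPM without it. LPS-treated levels were 83.7, 68.9, 84.5 and 79.4 CPM with serine and 145, 128, 129 and 135 CPM without it. The LPS groups were apart, the library that stood apart was the lowest of the untreated ones, and the number 4 interaction of 1.76 was the highest.

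Cebpg, a partner of ATF4 on its target genes, was 107, 90.0, 105 and 96.7 CPM in untreated cells with serine and 151, 117, 114 and 162 CPM without it. After LPS it was 85.6, 62.5, 62.3 and 68.6 CPM with serine and 164, 116, 114 and 120 CPM without it. The groups with and without serine were apart both before and after LPS. Withdrawal had a value of 0.44 ± 0.15 in untreated cells, not called, and raised Cebpg by 0.88 ± 0.15 in LPS-treated cells (edgeR adjusted p = 0.04999). Its interaction was 0.44 ± 0.22 and by number 0.44, 0.51, 0.76 and 0.06, and it was called with the block and without that replicate at 0.55 ± 0.10 (edgeR adjusted p = 0.047). Among the genes with the smallest unadjusted p were also Ssh2, a cofilin phosphatase (0.87 ± 0.23), Tnrc6b, a partner of Argonaute in microRNA silencing (0.61 ± 0.17), Stradb (0.92 ± 0.27), Zswim6 (0.63 ± 0.18) and the zinc finger gene Zfp931 (1.74 ± 0.46). None of them was called. The rule that named them required the same sign in all 4 numbers, so their positive value in each number was set by the choice. Zfp931 was a low gene, at 0.298 to 3.48 CPM in all 16 libraries.

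**Figure D1:**
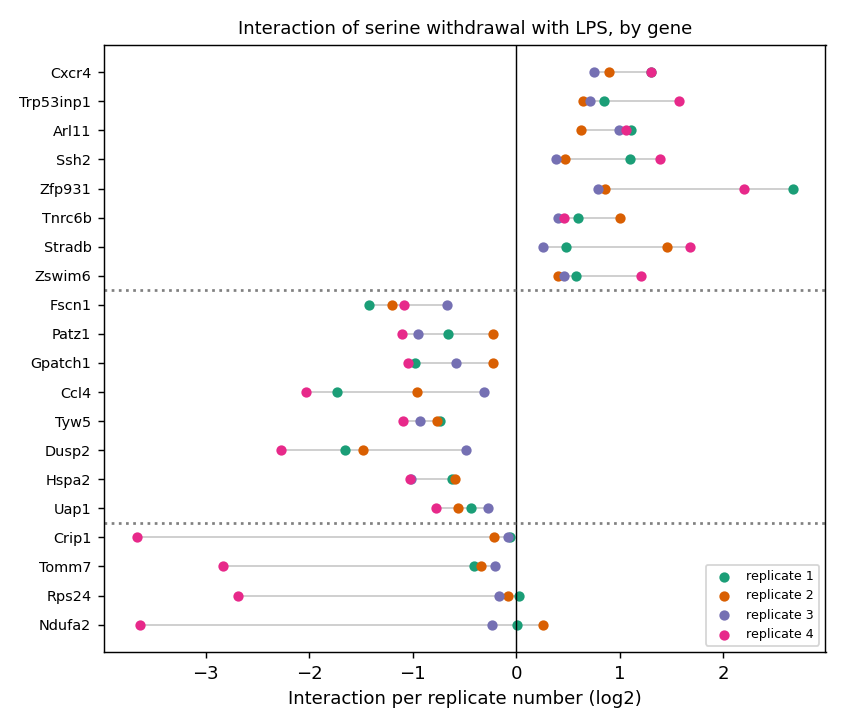
Interaction (log2) of 20 genes in each replicate number, computed from log2 CPM with a prior count of 2; points are the 4 numbers and grey lines their range. The 8 upper genes are positive and the next 8 negative in every number, which the rule that named them required. Crip1, Tomm7, Rps24 and Ndufa2 are far below 0 in number 4 and between -0.41 and 0.26 in the others.

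The genes with negative values and the smallest unadjusted p included several that LPS raised strongly, with the smaller fold change without serine. Fscn1, fascin, bundles actin filaments in migrating cells and is high in mature dendritic cells. It stood at 0.707, 0.921, 0.754 and 0.278 CPM untreated with serine and 1.12, 1.19, 0.769 and 0.337 CPM without it. With LPS Fscn1 stood at 101, 91.7, 111 and 119 CPM with serine and 53.1, 48.5, 71.0 and 62.2 CPM without it. The LPS groups were apart. The untreated groups overlapped at values near the detection limit, and within each number the library without serine was the higher one. LPS raised Fscn1 by 7.23 ± 0.24 with serine and 5.90 ± 0.23 without it (edgeR adjusted p = 1.33e-12 and 9.12e-12). The interaction was -1.34 ± 0.38, negative in all 4 numbers, as the naming rule required. Of 8 dendritic cell markers 2 were members and tested, both negative, and the 8 summed to 18.6 to 24.6 CPM with LPS and serine and 14.4 to 19.9 CPM with LPS and no serine, against at most 6.67 CPM in untreated libraries. In bulk RNA, fewer cells of a type and less RNA per cell cannot be told apart, and the part of such cells in the Fscn1 value was not tested.

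Dusp2, a phosphatase that switches off MAP kinases, had 1.72, 1.64, 0.880 and 0.974 CPM untreated with serine and 2.55, 1.88, 0.769 and 3.04 CPM without it. LPS-treated libraries had 80.8, 44.4, 58.8 and 56.9 CPM with serine and 36.2, 17.7, 37.9 and 31.0 CPM without it. Again only the LPS groups were apart. The interaction of Dusp2 was -1.52 ± 0.49, and -1.65, -1.49, -0.48 and -2.27 by number.

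Ccl4 encodes a chemokine that draws monocytes and T cells, and its pattern was different. It had 1391, 907, 1205 and 1040 CPM with LPS and serine and 1171, 806, 985 and 857 CPM with LPS and no serine. Untreated levels were 1.21, 1.02, 1.89 and 1.81 CPM with serine and 3.91, 1.98, 1.92 and 6.75 CPM without it. The LPS groups overlapped, while within each number the LPS library without serine was the lower one. The untreated libraries without serine all lay above those with it, at a few CPM. The interaction of Ccl4 was -1.40 ± 0.43, by number -1.74, -0.96, -0.32 and -2.03, and -1.23 without number 4. It was made up of a withdrawal value of 1.15 ± 0.36 in untreated cells and -0.25 ± 0.24 in LPS-treated cells, neither of them called.

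Jdp2, a bZIP repressor of AP-1, had 14.5, 6.76, 6.03 and 7.52 CPM in untreated cells with serine and 25.3, 14.3, 10.6 and 10.5 CPM without it. After LPS the values were 198, 133, 111 and 121 CPM with serine and 228, 134, 116 and 111 CPM without it. Within each number the untreated level was higher without serine, while the LPS-treated levels overlapped. Its interaction was -0.77 ± 0.47 unpaired and -0.82 ± 0.13 with the block and without untreated serine-free replicate 4 (edgeR adjusted p = 0.0133).

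Srsf6, a splicing factor rich in serine and arginine, had 109, 83.5, 80.7 and 90.2 CPM untreated with serine and 92.2, 69.4, 69.0 and 91.4 CPM without it. LPS-treated libraries had 187, 145, 132 and 139 CPM with serine and 103, 76.8, 83.7 and 89.8 CPM without it. The LPS groups were apart and the untreated groups overlapped, and the interaction was -0.60 ± 0.21 unpaired and -0.52 ± 0.08 with the block and without that replicate (edgeR adjusted p = 0.0133). Tnfaip2, a gene raised by tumour necrosis factor, stood at 388, 279, 288 and 286 CPM untreated with serine and 486, 346, 340 and 247 CPM without it. Its LPS-treated levels were 5913, 4469, 4829 and 4761 CPM with serine and 5426, 4286, 4148 and 4032 CPM without it. These groups overlapped, and within each number the LPS library without serine was the lower one. Tnfaip2 had the value nearest to 0 of these genes, -0.35 ± 0.26 unpaired and -0.45 ± 0.07 in the fit that called it (edgeR adjusted p = 0.00779), with -0.45, -0.37, -0.46 and -0.02 by number.

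**Figure D2:**
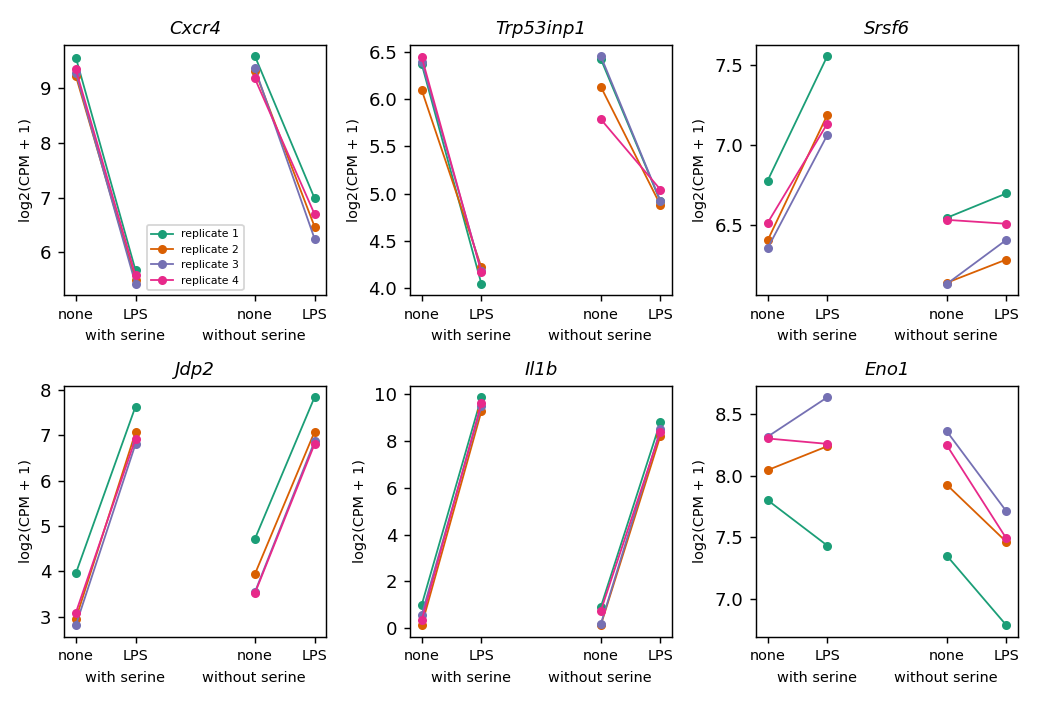
Levels of 6 genes as log2(CPM + 1) in the 16 libraries; a line joins the untreated and the LPS-treated library of the same replicate number within a medium. LPS-treated Cxcr4 and Trp53inp1 lie higher without serine, LPS-treated Srsf6 and Il1b lower, and Jdp2 differs between media mainly in untreated cells.

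Over all members the LPS effects in the 2 media lay along the diagonal, as the plot of the LPS effect per gene shows. Of the 114 members with an unadjusted p under 0.05 and a positive interaction, 89 (78.1%) were lowered by LPS on average over both media at an adjusted p under 0.05 (edgeR), against 34.9% of all members tested. Of the 122 with a negative interaction, 50 (41%) were raised, against 31.2% of all members tested, and 34 (27.9%) were lowered. The 114 and 122 were chosen by the interaction, and these shares are descriptions.

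**Figure D3:**
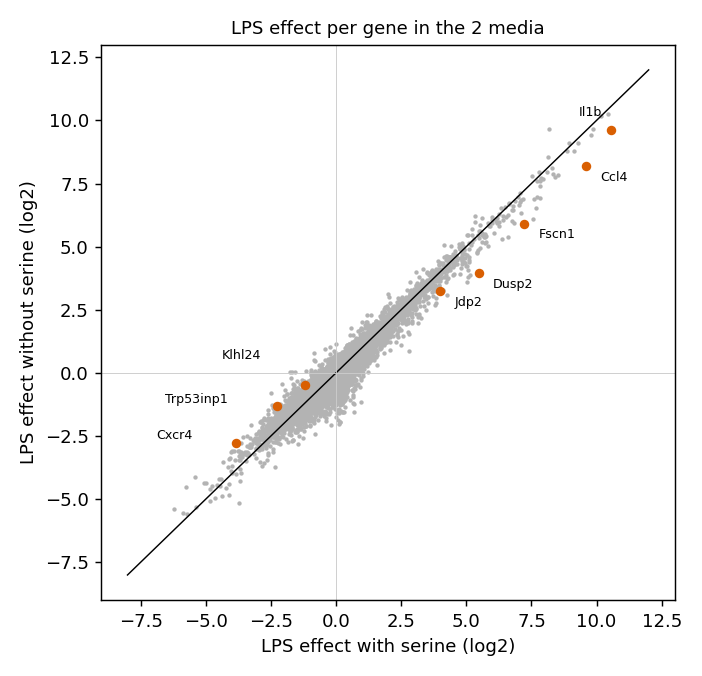
LPS effect per gene (log2 fold change) with serine on the horizontal and without serine on the vertical axis for 10702 genes; the line marks equal effects. Labelled genes above the line, among them Cxcr4, Trp53inp1 and Klhl24, have positive interactions, and those below it, among them Ccl4, Fscn1 and Dusp2, negative ones.

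The members were next grouped by their LPS effect averaged over both media, with limits picked after the fit had been seen. Genes lowered by a log2 fold change between -2 and -4 numbered 314, and 220 of them had a positive interaction, 70.1% against 49.4% of all members tested. Their median interaction was 0.22, and 0.25, 0.12, 0.20 and 0.38 in numbers 1 to 4. It lay between 0.16 and 0.26 in every alternative fit. Genes lowered by between -1 and -2 (1235) had a median of 0.04, and the 21 lowered by -4 or more had a median of 0.13 with numbers of both signs. All members had a median of 0.00 (-0.00454).

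Raised genes showed no common direction over all 4 numbers. Genes raised by 1 to under 2 (868) had a median interaction of 0.02 and those raised by 2 to under 4 (564) one of 0.00 (0.0019). The 198 raised by 4 or more had a median of -0.12, with 125 of them negative (63.1% against 50.6% of all members tested). By number their median was -0.10, -0.03, -0.10 and 0.18, so that only number 4 was positive. Without number 4 the medians were -0.02, -0.04 and -0.11, from the least to the most raised group. The shares of negative values were then 55.9%, 55.9% and 63.1%, against 50.1% of all members tested. The median of these 198 moved to -0.38 without untreated replicate 1 with serine and to 0.22 without untreated serine-free replicate 1. Both fits were unpaired and kept the same-numbered untreated library of the other medium. The shifts therefore also hold what same-numbered libraries share, and do not show that 1 library sets the sign.

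**Figure D4:**
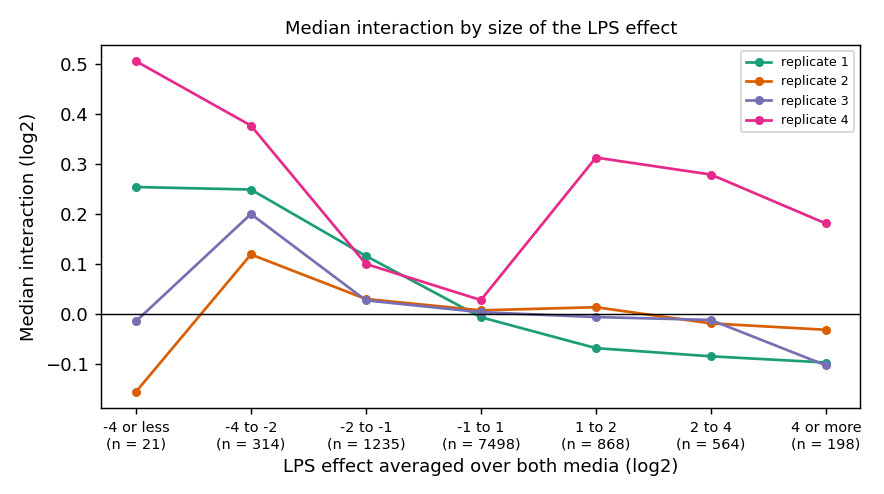
Median interaction (log2) of members grouped by LPS effect averaged over both media, by replicate number; the number of genes stands under each group. All 4 numbers are above 0 for genes lowered by -2 to -4, and number 4 lies apart from the others for raised genes.

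The series title names IL-1β, the cytokine encoded by Il1b, and the untreated counts of Il1b were few. It stood at 922, 614, 709 and 776 CPM with LPS and serine and 447, 296, 355 and 331 CPM with LPS and no serine, so that the LPS groups were apart. Untreated it stood at 1.01, 0.102, 0.503 and 0.278 CPM with serine and 0.877, 0.0989, 0.128 and 0.675 CPM without it, and these groups overlapped. The interaction of Il1b was -0.95 ± 0.73, with a 95% confidence interval from -2.48 to 0.59 (edgeR adjusted p = 0.95). It was 0.16 without untreated serine-free replicate 1, in an unpaired fit that kept untreated replicate 1 with serine. Withdrawal in LPS-treated cells had a value of -1.08 ± 0.26 (edgeR adjusted p = 0.151). Its neighbour Il1a had an interaction of -0.35 ± 0.69 and Tnf, tumour necrosis factor, one of -0.37 ± 0.34.

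Of the 20 proinflammatory cytokines listed, 10 were members and tested. None was called and none had an unadjusted p under 0.05; 9 were negative (against 50.6% of all members tested) and 1 positive, with a median of -0.34, and 2 were negative in all 4 numbers. The median moved to 0.05 without untreated serine-free replicate 1, in an unpaired fit that kept untreated replicate 1 with serine. Of 18 chemokines 11 were members and tested, with 0 called, 2 at an unadjusted p under 0.05, Ccl4 and Ccl3 (-0.64 ± 0.24), both lower (against 1.14% of members tested), 9 negative values (against 50.6%) and a median of -0.22. Their medians by number were -0.25, -0.15, -0.21 and -0.70, and the median was -0.145 without number 4. Of the genes of NF-kB signalling and its feedback, 16 of 26 were negative with a median of -0.02, and of the interferon-stimulated genes 13 of 32 with a median of 0.08. Cd40, a costimulatory receptor that LPS raised by 8.51 with serine and 7.82 without it, had -0.69 ± 0.31 and was negative in all 4 numbers.

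The 6 genes listed for serine and glycine synthesis had positive values. All 6 were members and tested, and all 6 were positive in the unpaired fit (against 49.4% of members tested), 3 of them in all 4 numbers, with a median of 0.39 against 0.00 for all members and medians of 0.36, 0.34, 0.84 and 0.50 by number. In the unpaired fit none was called or had an unadjusted p under 0.05, and with the block 1 of the 6, Shmt2, had such a p, against 2.2% of genes tested higher. Shmt2, the mitochondrial enzyme that converts serine to glycine, had 19.9, 26.6, 16.1 and 17.4 CPM untreated with serine and 27.7, 38.9, 25.6 and 32.7 CPM without it. With LPS it had 30.1, 33.3, 12.9 and 16.1 CPM with serine and 70.6, 57.9, 37.6 and 42.3 CPM without it. The LPS groups were apart and the untreated groups overlapped, while within each number the library without serine was the higher one both before and after LPS. The interaction of Shmt2 was 0.53 ± 0.39 unpaired and 0.57 ± 0.25 with the block (edgeR unadjusted p = 0.0437 and adjusted p = 0.828). Psph, the phosphatase of the last step of serine synthesis, had an interaction of 0.66 ± 0.49. Psat1, the transaminase before it, had 0.27 ± 0.25, with number 4 (0.52) the highest, and 0.09 without untreated replicate 2 with serine. Phgdh, the first enzyme, had 0.18 ± 0.66 and values of both signs by number, 0.04, 0.46, 0.83 and -0.33. Its sign turned in 5 of the alternative fits, each leaving out 1 library or number, with -0.32 without untreated replicate 2 with serine as the lowest value. Tha1 and Gcat, which form glycine from threonine, were not in the list and went the other way. Their LPS effects were 2.28 with serine and 1.75 without it for Tha1, and -0.3 and -0.68 for Gcat. The values above therefore describe the listed genes only.

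Other ATF4 targets did not share one direction. Of 29 tested members 15 were positive and 14 negative, with a median of 0.03 and none called. Chac1, which breaks down glutathione, had 2.12, 2.05, 0.377 and 1.11 CPM untreated with serine and 10.5, 12.4, 3.59 and 6.41 CPM without it. With LPS it had 29.0, 13.5, 10.2 and 12.5 CPM with serine and 65.6, 47.2, 32.7 and 43.8 CPM without it. All libraries without serine lay above those with it under the same treatment, and the log2 distance was larger in untreated cells, with an interaction of -0.99 ± 0.62. Mthfd2, a mitochondrial folate enzyme, had -0.60 ± 0.35 and Asns, asparagine synthetase, -0.12 ± 0.36. The 20 cytosolic aminoacyl-tRNA synthetases had 14 positive and 6 negative values and a median of 0.13, with 8 positive in all 4 numbers (11.5% of genes tested) and 1 negative in all 4 (8.92%). Wars, tryptophanyl-tRNA synthetase, had the smallest unadjusted p among them, at 0.57 ± 0.24.

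Glycolytic and HIF-1 target genes lay mostly below 0. Of 25 genes 23 were members and tested; 18 were negative and 5 positive, with a median of -0.25, and 9 were negative in all 4 numbers against 8.92% of all genes tested. The medians by number were -0.06, -0.19, -0.33 and -0.48, and -0.27 without number 4. None was called. In the unpaired fit 2 had an unadjusted p under 0.05, both lower, and with the block 9 of 23 did, all lower, against 2.03% of genes tested. Eno1, enolase 1, had 222, 263, 318 and 314 CPM untreated with serine and 162, 242, 328 and 303 CPM without it. With LPS it had 172, 301, 397 and 305 CPM with serine and 109, 175, 208 and 179 CPM without it. Replicate 1 was the lowest in each group and the LPS groups overlapped, while within each number the LPS library without serine was the lower one. The interaction of Eno1 was -0.69 ± 0.36 unpaired and -0.64 ± 0.15 with the block (edgeR adjusted p = 0.95 and 0.828). Tpi1, triose phosphate isomerase, had -0.66 ± 0.30 and Slc16a3, the lactate exporter MCT4, -0.48 ± 0.21.

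Large negative medians for ribosomal proteins and complex I came from number 4 alone. Of 51 cytosolic ribosomal proteins 50 were negative, with a median of -0.66, and of 36 subunits of complex I, the first enzyme of the respiratory chain, 34 were negative, with a median of -0.56. By number the ribosomal medians were 0.03, 0.07, -0.09 and -1.55, and those of complex I 0.06, -0.03, -0.02 and -1.54. Without number 4 the medians were 0.00 (7.85e-05) and -0.01. Rps24, for example, stood at 175, 190, 199 and 1399 CPM in untreated replicates 1 to 4 without serine, and at 185 to 291 CPM in every library of the other groups. The same replicate gave Crip1, a small LIM protein, 876 CPM against 46.6 to 94.6 CPM in all other libraries. Gene length moved with this: in number 4 the median interaction was -0.84 in the tenth of members with the shortest gene models and 0.77 in the tenth with the longest, whereas numbers 1 to 3 lay between -0.05 and 0.04 in both classes. The part of RNA quality in it was not tested.

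**Figure D5:**
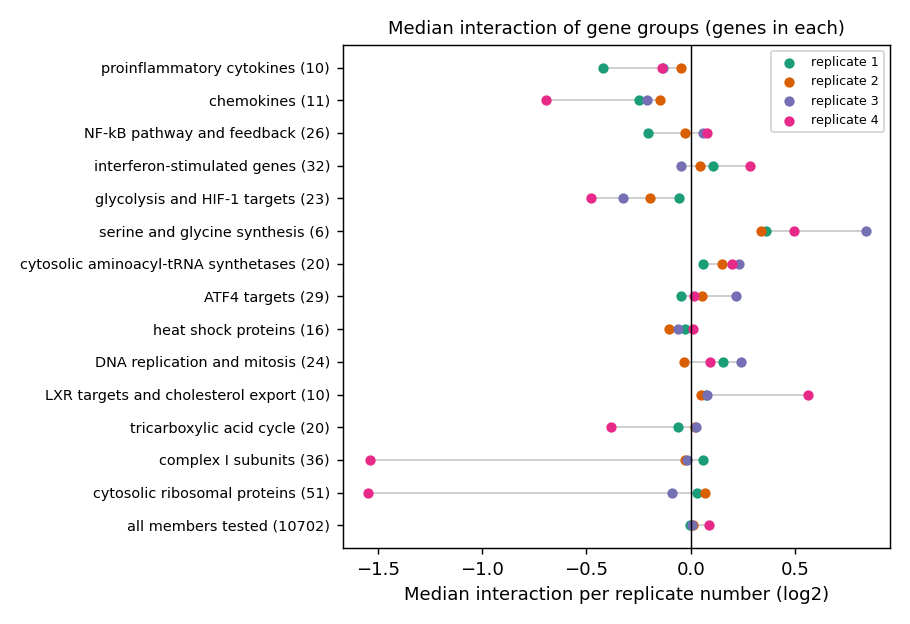
Median interaction (log2) of 14 gene groups and of all members by replicate number, with the number of genes in brackets. Glycolytic genes, cytokines and chemokines are below 0 and serine synthesis enzymes and synthetases above 0 in all 4 numbers, while ribosomal proteins and complex I subunits are far below 0 in number 4 only.

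Glutathione and NRF2 target genes, which protect against oxidants, had 18 negative values of 25 and a median of -0.22, with -0.02, 0.10, -0.04 and -0.56 by number and 0.00 (0.00234) without number 4. The enzymes of cholesterol synthesis had 13 negative values of 22 and a median of -0.16, with -0.32, -0.20, -0.05 and -0.23 by number and -0.09 without number 4. The LXR targets of cholesterol export had 6 positive values of 10 and a median of 0.22, or 0.11 without number 4. None of these genes was called. Heat shock proteins had 12 negative and 4 positive values with a median of -0.14, led by Hspa2 (-0.84 ± 0.27). Genes of DNA replication and mitosis had 13 positive and 11 negative values with a median of 0.06, and lysosomal genes 14 and 12 with 0.01, among them Flcn, a regulator of TFEB and mTORC1 at the lysosome (0.67 ± 0.24). Neutrophil markers had 6 tested members, all negative with a median of -0.46 and none at an unadjusted p under 0.05. Their summed levels overlapped between all groups, at 22.4 to 125 CPM untreated with serine, 24.7 to 156 CPM untreated without it, 25.9 to 113 CPM with LPS and serine and 23.8 to 99.6 CPM with LPS and no serine. Cd3d, Cd3e and Cd3g of T cells, Pax5 of B cells, and Mcpt4, Tpsb2 and Fcer1a of mast cells had 0 counts in all 16 libraries. Other genes of the same lists were detected. Over all libraries the T and NK cell markers summed to 2.7 to 14.6 CPM and the B and plasma cell markers to 2.38 to 9.78 CPM. Mast cell and basophil markers summed to 0 to 1.81 CPM. Stromal markers summed to 3.2 to 26.1 CPM in untreated libraries and 15.6 to 49.3 CPM with LPS.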

How the data were processed

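The authors deposited whole-number read counts per Ensembl gene for 43430 genes. The submitters' processing notes name mm10, HTSeq, STAR, edgeR, SAMtools and Trimmomatic 0.33, and assign no roles. Whether counting used strand is not given in the sources used here, so antisense overlaps and near copies, such as those of ribosomal and glycolytic genes, are uncertain. Another 24 per-sample columns were left out. Symbols were found for 42462 genes.

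Counts were fitted in R 4.3.3 with edgeR 4.0.16 (quasi-likelihood, robust, TMM, default filter, 11004 genes kept, 302 of them not members), with 1 mean for each of 4 groups of 4 libraries. Tests are two-sided, with Benjamini-Hochberg adjusted p over all genes tested. Values per replicate number come from log2 CPM with a prior count of 2. The fitting code was tested on simulated data. DESeq2 1.42.0 and limma 3.58.1 served as alternatives. The common biological coefficient of variation was 20.9%, and 14.1% without untreated serine-free replicate 4.

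The pairing of replicate numbers was checked by correlating deviations from group means across genes. All 16 same-numbered pairs of the groups that are subtracted from each other exceeded 0.1 (0.125 to 0.66), as did 7 of 8 in the other 2 pairs of groups (lowest 0.0865); pairs of different numbers lay between -0.373 and 0.141. On the 16 pairs the numbers pair the samples, and on all 24 the criterion is missed by 1. Blocked results were known when the first reading was taken. No library was a copy of another.

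The members and the 34 gene lists were chosen with earlier results of these data known. Genes were named by a rule: the smallest unadjusted p or the largest values, a list of inflammatory and serine genes, and the first of each list, passing over predicted genes. Those named for the smallest p or the largest values had to have an unadjusted p under 0.05 and 1 sign in all 4 numbers. Klhl24, Tnfaip2 and Srsf6 fell outside it and were named after their values were seen, as the groups by LPS effect, the motifs and the blocked fit without number 4 were chosen. Gene lists were counted over tested members after a first count over all tested genes. Some genes that met these rules are not reported here.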

Additional observations from a re-analysis of the deposited data

Results flagged for a closer look

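In groups of 4 values, a highest or lowest value was marked when its gap to the next was more than a fixed share of the whole range, and 14 of 104 groups were marked; chance marks about 1 in 20. In each of the 12 marked genes except Srsf6, number 4 was the value that stood apart. It was the lowest for Crip1 (-3.67), Tomm7 (-2.84), Rps24 (-2.68), Rplp2 (-2.74), Ndufa2 (-3.63) and Pfkl (-0.739), the highest for Ints6l (2.18), Nlrp3 (0.664), Abca1 (1.53) and Psat1 (0.517), and the lowest for Elmod3 (0.0263). Number 3 stood apart for Srsf6 (-0.435), nearer to 0 than the other 3 numbers. The medians of ribosomal proteins (-1.55) and complex I subunits (-1.54) were marked for number 4 as well.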

How the results depend on the processing

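The count of called genes was 0 in the fit reported and 0 in 28 of the 32 alternatives, among them the replicate block (465 genes at an unadjusted p under 0.05) and the fit of 1 value per replicate number in limma (582). It was 8 with the block and without untreated serine-free replicate 4, and 1, Cxcr4, with the block and without number 4, with DESeq2 (99 genes without an adjusted p) and with the edgeR likelihood ratio test. Leaving out 1 library or number in the unpaired fit gave 0 called, with 148 (without number 3) to 584 (without untreated serine-free replicate 1) genes at an unadjusted p under 0.05, against 253 in the fit reported. The median of genes raised by LPS by 4 or more ranged from -0.382 to 0.222 in the unpaired fits that left out 1 library. That of genes lowered by -2 to -4 ranged from 0.157 to 0.263 over all alternatives. Of the values of named genes, 30 changed sign and 2616 kept sign and side of the threshold. The sign changed for Ptgs2 in limma (0.0374), and with the block for Rplp2 without number 4 (0.0369) or without only that untreated replicate (0.0219) and for Ndufa2 without number 4 (0.00934). When 1 library or number was left out unpaired, values ranged from -1.59 to 0.0518 for Rplp2, -2.22 to 0.00572 for Ndufa2, -0.47 to 0.101 for Ptgs2, -0.179 to 0.443 for Trib3, -0.323 to 0.516 for Phgdh, -0.321 to 0.0944 for Asns, -0.881 to 0.463 for Acod1, -0.395 to 0.176 for Nlrp3, -1.7 to 0.163 for Il1b and -0.616 to 0.249 for Il1a. The cause was not tested. Low untreated counts limit the interaction of genes that LPS switches on.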
